A study of Mus musculus with 12 samples.

Results

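The genes described here are the transcripts that GENCODE M21 types as TEC or sense_intronic and that were detected in mouse hippocampal slices after chemical long-term potentiation (LTP). They were chosen by their annotated type and by their counts: a gene was taken if it lay outside an excluded interval of chromosome 12, which held 0 genes of these types, and had at least 10 counts in at least 3 of the 12 libraries. Of 182 such genes in the count tables, 101 passed, 21 TEC and 80 sense_intronic, out of 41091 gene IDs in all. The count rule used the measured values, so that these genes were detected is not a result.

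TEC marks a region that annotators hold to be transcribed but whose gene model still awaits an experiment, usually an unspliced piece of RNA with a polyadenylation feature. A sense_intronic gene is a non-coding transcript placed inside an intron of another gene, on that gene's own strand, so that RNA polymerase crosses it every time the host is transcribed. Introns of long neuronal genes hold many such models, and their RNA, like other intronic RNA, is mostly kept and broken down in the nucleus. In counts per gene from total RNA, reads from an unspliced host transcript and from a separate transcript at the same place and strand cannot be told apart. That holds for every value given here of a member with a host on its own strand. For the 63 members with over 1 exon, reads across their own splice junctions were not counted apart.

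Total RNA was measured in wild-type C57BL/6 mice aged 2 to 3 months, from hippocampal slices whose dentate gyrus had been cut away. For LTP, slices received 50 uM forskolin, which activates adenylyl cyclase, and after 5 min forskolin with 30 mM KCl and 10 mM calcium, 10 min in all. Control slices received 0.2% DMSO for 10 min, and slices were frozen 1 hr or 3 hr later. The 4 groups (1 hr control, 1 hr LTP, 3 hr control, 3 hr LTP) hold 3 libraries each, each library pooling slices of 1 animal, and within a time point an animal gave both an LTP and a control library.

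The libraries held 37118382 to 50815001 counts, of which the 101 members took 0.0118% to 0.0187%, so 3 counts correspond to 0.0584 to 0.0791 CPM (counts per 1000000 of a library's total, scaled by the TMM method). 1 hr control library 2 stood apart from its group in the study's own clustering and was left out of the fits, as the study did. Total counts of member calls that use the 1 hr controls are also given with it. Counts for cell type markers, other gene lists and calls shared between comparisons are not. Markers of hippocampal cell types were detected in every library, the lowest at 3.29 CPM, and the dentate granule cell markers Prox1, C1ql2, Dsp and Tdo2 summed to 120.0 to 220.8 CPM although that region had been trimmed. Of the 34 cell type markers, 0 were called between LTP and control at either time by edgeR's quasi-likelihood test, and 14 were called between the 3 hr and the 1 hr controls, beside 32.8% of all genes. In bulk tissue, fewer cells of a type and less RNA per cell cannot be told apart.

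The ends of the members the results turn on are shown first, because a polyadenylation signal near the annotated end (AATAAA or ATTAAA, in capitals) is what a separate, polyadenylated transcript would carry and a fragment of an intron need not. Each line gives the last 50 bases of the GENCODE M21 transcript, 5′ to 3′ on its own strand, with GRCm38 coordinates.
Gm20705, chr6:99384607-99384656 (-): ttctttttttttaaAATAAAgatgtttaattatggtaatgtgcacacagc
Gm15521, chr9:29590484-29590533 (-): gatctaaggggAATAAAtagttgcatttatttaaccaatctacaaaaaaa
1700006F04Rik, chr14:119751515-119751564 (+): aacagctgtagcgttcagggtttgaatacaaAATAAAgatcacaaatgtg
Gm10115, chr2:6950453-6950502 (-): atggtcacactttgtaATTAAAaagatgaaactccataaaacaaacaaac
Gm12701, chr4:100120792-100120841 (+): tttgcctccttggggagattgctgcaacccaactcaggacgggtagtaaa
Cep112it, chr11:108826893-108826942 (+): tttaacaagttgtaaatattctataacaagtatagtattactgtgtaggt
Gm26638, chr6:40129428-40129477 (+): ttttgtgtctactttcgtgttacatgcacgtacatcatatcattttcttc
Gm15809, chr13:43006018-43006067 (+): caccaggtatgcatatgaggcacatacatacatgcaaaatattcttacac
Gm9930, chr10:9532531-9532580 (-): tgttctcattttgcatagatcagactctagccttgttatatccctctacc
Gm17024, chr12:40209487-40209536 (-): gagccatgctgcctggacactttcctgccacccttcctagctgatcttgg
Gm10855, chr2:6932541-6932590 (-): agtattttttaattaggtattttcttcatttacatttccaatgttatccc
B930095G15Rik, chr14:121253922-121253971 (+): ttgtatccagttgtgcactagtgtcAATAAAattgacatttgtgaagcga

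Of the 101 members, 33 (32.7%) had one of these signals in the last 50 bases, against 1023 of 3545 annotated TEC and sense_intronic genes (28.9%). The share was 11 of 21 among TEC members and 22 of 80 among sense_intronic members. Among the 31 members called higher at 3 hr of LTP, described below, 9 had a signal, against 23 of the 60 tested and not called. The 2 members inside Celf2 differed in this: Gm10115 carries ATTAAA and Gm10855, which lies about the same distance into the gene, carries neither form. The shortest member, Gm22574, is a TEC model of 60 bases inside the last intron of Cox7c, a subunit of cytochrome c oxidase. It is shown whole because so few bases can collect so few reads. Gm22574 carries AATAAA, which begins 33 bases before its end. The last 50 bases are most of this model, so the signal does not mark Gm22574 as a separate, polyadenylated transcript. Whether its RNA is polyadenylated or is a small RNA of another type was not tested.
Gm22574, chr13:86044989-86045048 (-): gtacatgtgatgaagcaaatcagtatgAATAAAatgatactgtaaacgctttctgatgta

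RefSeq promoter sequences (250 bases before to 50 after the start, GRCm38.p6) matched 9 members by symbol. The RefSeq start lay 0 to 6 bases from the GENCODE start except for Gm10654 (90 bases) and 4933440N22Rik (445 bases), whose windows are thus not those of the GENCODE model. They were searched on both strands for the cAMP response element TGACGTCA, its shorter form TGACG (which the longer one contains), the E-box CACGTG and the TATA box TATAAA, since forskolin raises cAMP. TGACGTCA, TGACG and CACGTG were in 0 of the 9 windows, against 1.79%, 20.8% and 7.15% of 32851 RefSeq promoters. TATAAA or its reverse complement was in 1, that of 1700123O21Rik (named after the search), against 13.6%. Among 68 hosts with a RefSeq window, TGACG was in 19 (27.9%) and TGACGTCA in 1. The window of Gm12701, the member with the largest called rise at 3 hr, is printed because it is the place a promoter of its own would occupy. Its start lies 6 bases from the GENCODE start.
Gm12701 promoter, chr4:100119377-100119676 (+): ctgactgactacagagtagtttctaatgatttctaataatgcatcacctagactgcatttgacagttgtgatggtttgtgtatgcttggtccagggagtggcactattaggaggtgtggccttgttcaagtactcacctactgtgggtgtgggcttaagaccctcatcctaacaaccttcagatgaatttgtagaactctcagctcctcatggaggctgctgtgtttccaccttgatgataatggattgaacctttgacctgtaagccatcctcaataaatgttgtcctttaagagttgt

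The members were mostly intronic RNAs of long genes. On GRCm38, 91 members lay inside a gene on the same strand, 90 members with any host lay wholly within one of its introns, 1 (4933440N22Rik, in Hnrnpf) had a host on the opposite strand only, and 9, all TEC, had none. For sense_intronic genes the same strand is part of the definition. Hosts spanned 2.09 to 1550.0 kb with a median of 217.1 kb, and members began 0.34 to 610.9 kb from the host's start, with a median of 55.2 kb. There were 87 distinct same-strand hosts. Ppp1r9a, which encodes the actin-binding spine protein neurabin, held 3 members, and Celf2, an RNA-binding splicing regulator, and Rgl1 held 2 each. None of the 101 lay inside, or within 10 kb after, any of 26 immediate early genes such as Arc and Fos.

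Being inside a same-strand gene went with detection. Among TEC genes of the tables, 11 of 15 with a same-strand host passed the count rule, against 1 of 10 with an opposite-strand host and 9 of 32 with no host. The median level was 8.41 counts per kb of exon in the first of these classes, 1.65 in the second and 1.09 in the third, averaged over the 12 libraries. Among sense_intronic genes, 80 of 124 with a same-strand host passed. These shares describe what the count rule selected and were not tested.

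Most members were scarce. Their mean level over the 12 libraries ran from 0.129 to 19.7 CPM with a median of 0.628 CPM, and 64 were under 1 CPM. Of the 90 with a host in the tables, 85 had a lower CPM per kb of exon than that host, with a median of 8.27% of the host's level. Just inside the count rule were 4933440N22Rik and Gm15742, each with 10 counts in its third-highest library, and just outside were Gm6658 and 4930577N17Rik with 9 each. At least 10 counts in all 12 libraries were reached by 62 members.

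The most abundant member was B930095G15Rik (ENSMUSG00000085133, chr14:121248706-121253971), a sense_intronic gene in intron 13 of Farp1, a guanine nucleotide exchange factor of dendrites and synapses. Its level was 16.5 and 16.1 CPM in the 1 hr controls (17.5 in the left-out library), 18.8, 18.2 and 16.6 in 1 hr LTP, 20.6, 18.7 and 22.7 in the 3 hr controls, and 23.9, 18.8 and 27.5 in 3 hr LTP. LTP and control overlapped at 3 hr and, through the left-out library alone, at 1 hr, and neither difference was called (log2 differences 0.15 ± 0.10 and 0.19 ± 0.14, SE). Next came Gm10699 (chr8:14090461-14092590), a TEC gene with no host, at 11.7 CPM, and Gm29170 (chr1:143777642-143781307), in intron 1 of the deubiquitinase gene Uchl5, at 7.95 CPM. Gm10699 and Gm29170 were not called in the LTP comparisons. Gm29170 was 1 of 3 members, beside 14.1% of all genes, whose 3 hr LTP libraries all lay below the 3 hr controls, at 7.43, 6.31 and 6.36 against 8.11, 8.06 and 7.45 CPM, and its host had a log2 difference of -0.23 ± 0.08. Neither was called.

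Per kb of exon the order changed. Gm17024 led with 9.10 CPM per kb, followed by Gm15606 with 7.20, Gm10699 with 5.48 and the 60-base Gm22574 with 5.40. Their hosts were higher on the same scale, at 21.3 for Ifrd1, 24.1 for Opcml and 99.0 for Cox7c.

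The summed level of the members gives the shape of the response. In the 91 members with a same-strand host it was 101.9, 102.9 and 104.1 CPM in the 1 hr controls and 128.0, 130.9 and 106.1 CPM in 1 hr LTP. At 3 hr it was 104.9, 96.4 and 108.5 CPM in the controls and 158.9, 134.5 and 157.4 CPM in LTP. In LTP every library was higher than every control of its time, although 1 hr LTP library 3 exceeded the highest 1 hr control only slightly. The 9 members with no host showed no such separation: their sum was 25.03 to 26.53 CPM in the 1 hr controls, 22.62 to 26.5 in 1 hr LTP, 22.6 to 25.2 in the 3 hr controls and 23.7 to 27.0 in 3 hr LTP. Of these 9 members, 6 overlap exons of another gene on the opposite strand. Gm10699 alone averaged 11.7 CPM over the 12 libraries. It weighs heavily in their sum, which can hide changes in scarcer members such as Gm9930. The sums are a description and carry no test.

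**Figure D1:**
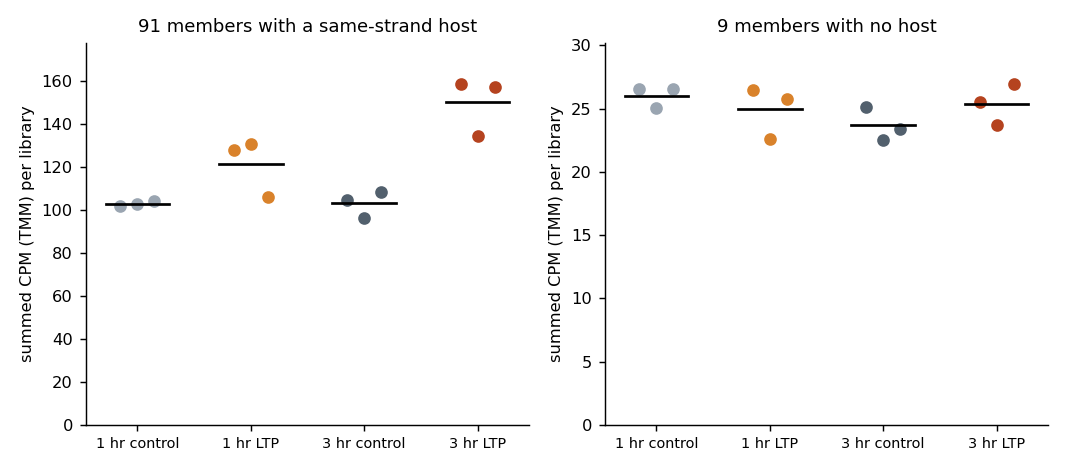
Summed CPM of the members in each library (points) with the mean of the 3 libraries of each group (bars), for the 91 members with a same-strand host and the 9 with none. The first sum lay between 134.5 and 158.9 CPM in 3 hr LTP, above all 3 hr controls, and the second overlapped between all 4 groups.

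At 1 hr after LTP a single member was called higher, Gm17024, a spliced sense_intronic gene in intron 8 of Ifrd1 (ENSMUSG00000090582, chr12:40209487-40211073). Ifrd1 encodes a transcriptional coregulator that is known to be induced by growth factors and differentiation signals. Gm17024 was at 3.85 and 3.32 CPM in the 1 hr controls (3.27 in the left-out library) and at 7.58, 9.20 and 9.05 CPM in 1 hr LTP. The groups did not overlap, and LTP was 2.42-fold higher (log2 difference 1.28 ± 0.15, SE, edgeR adjusted p = 0.000412). It was called under all 16 alternatives, with adjusted p from 2.21e-12 to 0.0162.

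A call needed an adjusted p under 0.1 in edgeR's quasi-likelihood test over all genes and a fold over 1.2. By this rule 1 of 90 members tested at 1 hr was called, beside 0.778% of all 17736 genes called higher, so the count of members was close to the background. At an unadjusted p under 0.05 there were 12, beside 6.71% of all genes. Of the 90, 64 were above 0, with a median log2 difference of 0.21 where the median of all genes was -0.0010. With 1 hr control library 2 in the fit the call was the same, 1 of 86. Without 1 hr LTP library 3 there were 2.

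The other members with the smallest p at 1 hr did not pass. Gm17207, in intron 2 of Fryl, had 2 counts in both fitted controls together against 28 in the 3 LTP libraries, a ratio of 9.31 with an exact 95% counting interval of 2.35 to 80.7, so its fitted value rests on almost no control reads. Gm10654, a TEC gene with no host, was at 1.45 and 1.45 CPM in the fitted controls and at 2.23, 2.61 and 2.02 CPM in LTP, but the left-out control stood at 3.23 CPM, above all of them. Gm21846, Gm10115 and 1700006F04Rik had log2 differences of 0.96 ± 0.36, 0.48 ± 0.19 and 1.00 ± 0.42. Gm17641 and Gm15903 had negative ones, -1.24 ± 0.48 and -1.16 ± 0.47. Adjusted p for these 7 ran from 0.404 to 0.667.

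At 3 hr after LTP 31 of 91 members tested were called higher and 0 lower, beside 5.07% of all 17508 genes called higher and 1.53% called lower. Of the 91, 81 were above 0, with a median log2 difference of 0.71 (median of all genes, -0.0025). The 3 LTP libraries all exceeded the 3 controls in 48 members, beside 12.9% of all genes. In all 31 called members the groups did not overlap, so that each was higher in LTP in all 3 animals adds nothing further. Of the 31, 12 had a log2 difference over 1. Since 3 hr libraries took part in the count rule, the same values were read in the members that reached it in the 1 hr libraries alone, which the rule then took without any 3 hr value: of 87 such members 83 were tested, 31 were called higher, and their median was 0.73.

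Of the called members 28 were sense_intronic and 3 were TEC: Gm9930, Gm29438 in St3gal5 and Gm26814 in Ppp1r9a, the latter pair named because the count is small. Of 73 sense_intronic members tested, 70 were above 0, with a median of 0.75. Of the 9 TEC members tested with a same-strand host 7 were above 0, with a median of 0.51, and of the 9 without a host 4 were, with a median of -0.07.

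Gm12701 (ENSMUSG00000086385, chr4:100119621-100120841), in intron 1 of Ror1, a receptor tyrosine kinase that binds Wnt5a, had the largest called rise. It was at 0.195, 0.239 and 0.234 CPM in the controls and at 0.591, 0.747 and 0.686 CPM in LTP, 3.03-fold higher (log2 1.60 ± 0.25, adjusted p = 0.0147). The groups lay well apart, although all are low levels, each between 9 and 34 counts. Its host Ror1 was at 10.4, 11.04 and 11.5 CPM in the controls and 13.3, 12.6 and 13.5 CPM in LTP, a log2 difference of 0.27 ± 0.08 that did not pass.

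Gm20705 (chr6:99384607-99388499) lies in intron 4 of Gm20696, a gene model typed as protein-coding. It was at 0.627, 0.740 and 0.759 CPM in the controls and at 1.61, 1.82 and 2.14 CPM in LTP, a log2 difference of 1.39 ± 0.19. Here the host was called too, from 1.28, 0.980 and 1.25 CPM to 2.48, 2.09 and 2.14 CPM (0.95 ± 0.17), the largest change of any member's host. Where several protein-coding genes span a member the shortest was taken as host, and others at this place were not compared. Gm9930 (ENSMUSG00000053980, chr10:9532531-9535681), a TEC gene, was the only member without a host to be called. It was at 1.41, 1.44 and 1.40 CPM in the controls and at 3.63, 2.97 and 4.48 CPM in LTP (log2 1.39 ± 0.17, adjusted p = 0.00551).

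Gm15521 and Gm15606 sit in neighbouring genes of chromosome 9 that encode the IgLON cell adhesion proteins neurotrimin (Ntm) and Opcml. Gm15521, 370.6 kb into Ntm, was at 0.541, 0.784 and 0.720 CPM in the controls and at 1.499, 1.49 and 1.79 CPM in LTP (log2 1.23 ± 0.20). Gm15606, 407.1 kb into Opcml, was at 4.41, 4.20 and 4.46 CPM in the controls and at 7.84, 7.08 and 9.21 CPM in LTP (0.89 ± 0.12). Both were apart from their controls, while the log2 differences of Ntm and Opcml were -0.04 ± 0.06 and 0.12 ± 0.06 and were not called.

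The remaining large called rises at 3 hr were Gm26575 (1.37 ± 0.32), Cep112it in intron 25 of the centrosomal gene Cep112 (1.31 ± 0.25), Gm26638 in Tmem178b (1.19 ± 0.21) and Gm15809 in Phactr1, a regulator of actin and protein phosphatase 1 (1.16 ± 0.27). Of these Gm26575 lost its call in 5 of 14 alternatives (adjusted p up to 0.227), Gm15809 in 6 of 14 (up to 0.194), Cep112it in 3 of 15 (up to 0.127) and Gm26638 in 1 of 15 (up to 0.101). Cep112it was at 0.432, 0.544 and 0.642 CPM in the controls and at 1.61, 1.38 and 1.00 CPM in LTP. Gm17024, the member called at 1 hr, was called again at 3 hr, from 4.15, 4.14 and 3.52 CPM to 6.84, 7.45 and 6.88 CPM (0.86 ± 0.10, adjusted p = 0.00543). 1700006F04Rik, not called at 1 hr, was called at 3 hr as well (1.14 ± 0.19, edgeR adjusted p = 0.0183).

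**Figure D2:**
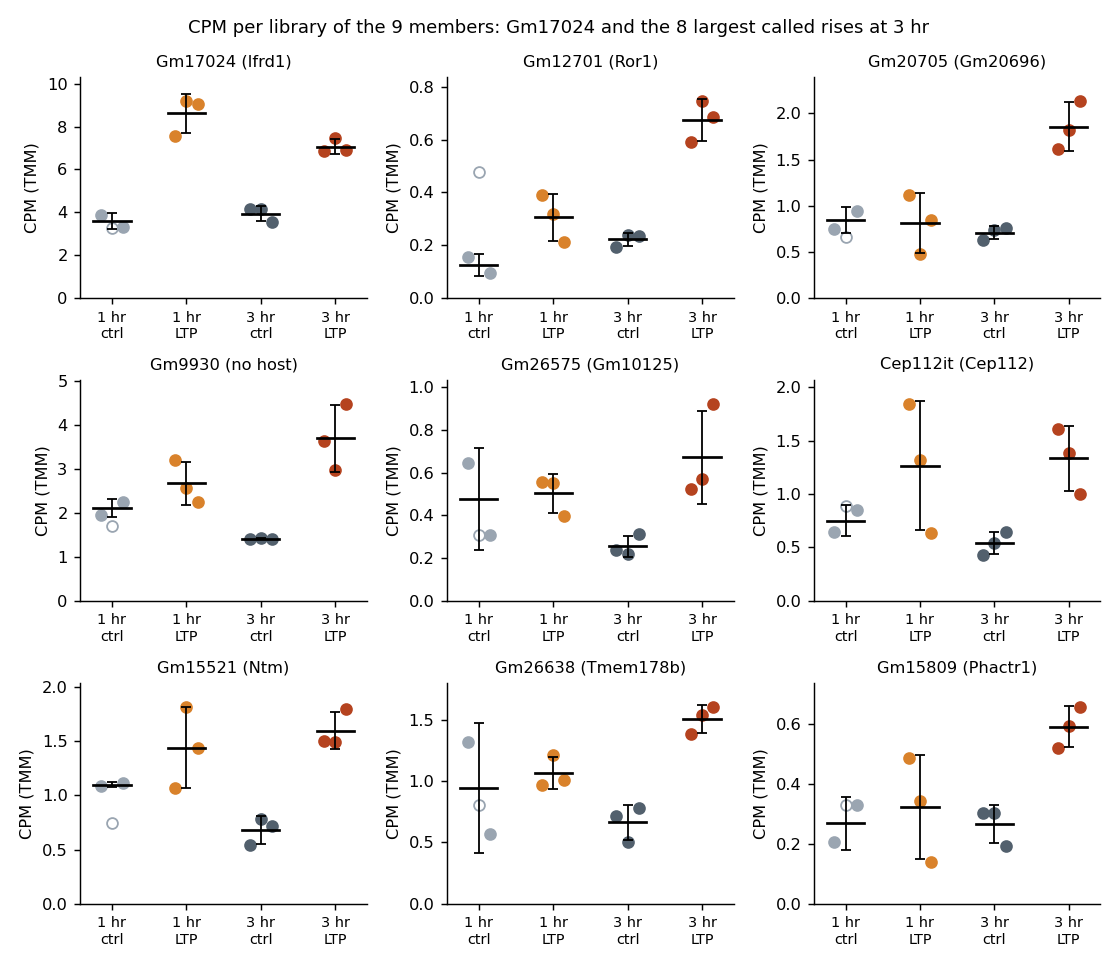
CPM in each library (points) for Gm17024 and the 8 members with the largest called rises at 3 hr, host in brackets. Black bars give the mean and SD of the fitted libraries (2 in 1 hr control, 3 in the others), the open circle is the left-out 1 hr control library 2, and in every panel the 3 hr LTP points lie above the 3 hr control points.

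The count of called members varied with the libraries fitted. Over all genes 3 hr LTP 2 and 3 were the least alike pair within a group, with a chi-square per degree of freedom of 85.6, against 44 for 1 and 3, 24.1 for 1 and 2, and 47 and 63.3 for the pairs with the left-out 1 hr control 2. Leaving out 1 library at a time gave 13, 9 and 13 calls without 3 hr control 1, 2 and 3, and 11, 46 and 28 without 3 hr LTP 1, 2 and 3, all of them higher in LTP. With the animal as a block 34 were called. Across these fits and the other alternatives the median log2 difference of the members tested lay between 0.55 and 0.79.

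The members had larger log2 differences than their hosts. Of 79 members tested at 3 hr together with a host, 76 exceeded the host at 3 hr, with medians of 0.74 for members and 0.08 for hosts. Of the 30 called members with a host, 24 had a host that was not called, and those 30 hosts ran from -0.21 to 0.95 with a median of 0.21. Host and member differences correlated across the 79 pairs with a Pearson coefficient of 0.45 and a Spearman coefficient of 0.41, as a description over genes that share the same 6 libraries.

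The difference between member and host was tested on the log2 ratio of their values within each library. At 3 hr 12 of 79 members were called, all higher than the host, beside 4.8% of 1229 nested gene pairs of every type called higher. The 3 with the smallest p were Gm12701 (1.17 ± 0.18, adjusted p = 0.0513), Gm15521 (1.24 ± 0.20, adjusted p = 0.0513) and Gm26575 (1.24 ± 0.23, adjusted p = 0.0521), by limma. With the animal as a block 0 of the 79 were called, and 0 were called when any 1 library except 3 hr LTP 2 was left out. At an unadjusted p under 0.05 there were 38 in the fit without the block, beside 21.6% of the nested pairs, and 35 with it, beside 21.3%. The 38 became 24 without 3 hr LTP 1, 27 without 3 hr control 2 and 29 without 3 hr control 1. The only members below their host were Gm22574 (-0.23 ± 0.37), AU015336 in P3h2 (-0.06 ± 0.25) and Gm13558 in Upp2 (-0.04 ± 0.21), each within its error. At 1 hr 58 of 78 members exceeded their host, 0 were called and 8 had an unadjusted p under 0.05, beside 9.04% of 1250 nested pairs. The 8 became 3 without 1 hr control 1, 3 without 1 hr LTP 2 and 5 with 1 hr control 2 in the fit, which called 0. The smallest were 1700006F04Rik (0.91 ± 0.26), Gm12701 (1.08 ± 0.32) and Gm17207 (1.59 ± 0.49) above the host and 9530056K15Rik (-1.11 ± 0.35), Gm15903 (-1.03 ± 0.37) and Gm22574 (-0.82 ± 0.39) below it. Gm12701 was at 0.155 and 0.095 CPM in the fitted 1 hr controls and at 0.389, 0.316 and 0.212 CPM in 1 hr LTP. The left-out control stood at 0.476 CPM, above all of them.

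**Figure D3:**
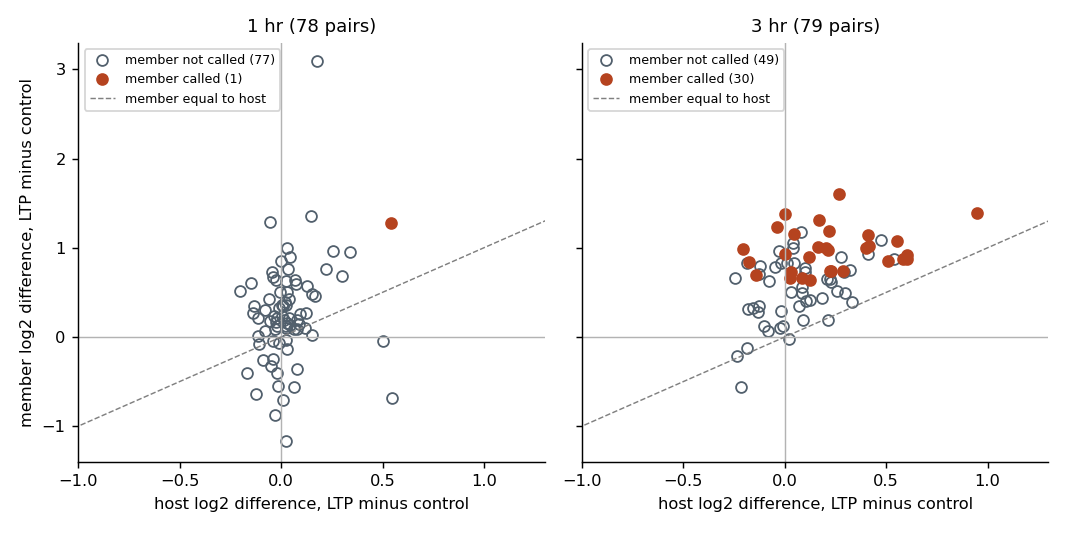
Log2 difference between LTP and control of each member (vertical) against that of its host (horizontal) at 1 hr (78 pairs) and 3 hr (79 pairs), filled where the member was called. At 3 hr 76 of the 79 points lie above the dashed line of equal change.

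Where the host itself was called with LTP, the member usually was too. At 3 hr 7 hosts with a tested member were called, covering 8 members, of which 6 were called. Gm10115 and Gm10855, 557.9 and 574.5 kb into Celf2, rose by 0.87 ± 0.18 and 0.92 ± 0.16, and Celf2 by 0.60 ± 0.07. Exons of another gene on the opposite strand cover 34.4% of Gm10115 and 0% of Gm10855, so the source of reads of Gm10115 is less certain. Gm12122 in Slit3, a secreted axon guidance ligand, rose by 1.08 ± 0.20 and Slit3 by 0.55 ± 0.11. Gm28119 rose by 0.87 ± 0.24 and 3110039I08Rik by 0.58 ± 0.08. The first choice of host, Gm49317, had no values in the tables, so 3110039I08Rik, which also spans it on the same strand, stands in its place, and 25.8% of Gm28119 is covered by exons of another gene on its own strand. Of these 4 members Gm28119 lost its call in 6 of 15 alternatives (adjusted p up to 0.264), Gm10115 in 3, Gm12122 in 2 and Gm10855 in 0. Ifrd1, the host of Gm17024, was the sole member's host called at 1 hr: it was at 101.7 and 98.2 CPM in the controls and at 140.8, 152.0 and 140.8 CPM in LTP (0.54 ± 0.07), so Gm17024 differed from it by 0.72 ± 0.24, which did not pass (limma adjusted p = 0.421). The exceptions were Gm17207 in Fryl (0.93 ± 0.40, host 0.41 ± 0.08) and Gm12737 in the uridylyltransferase gene Tut4 (0.73 ± 0.33, host 0.29 ± 0.06). Gm21816 in Mir99ahg, whose host rose by 0.58 ± 0.07, had too few counts to be tested at 3 hr.

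The 3 hr difference varied with the place in the host. The 13 same-strand members tested that began within 10 kb of the host's start had a median log2 difference of 0.34, with 2 called. The 38 members between 10 and 100 kb had a median of 0.70, with 11 called, and the 31 beyond 100 kb a median of 0.87, with 17 called. The Spearman coefficient over these 82 members was 0.37 with the distance from the host's start and 0.44 with the host's span, against -0.05 with the mean level, 0.02 with GC content and -0.06 with exonic length. Intron 1 and later introns gave like medians, 0.75 over 32 members and 0.73 over 50. At 1 hr the coefficient with distance was 0.18. These coefficients are descriptions: long hosts offer both long distances and large introns, and members in 1 host share its reads.

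**Figure D4:**
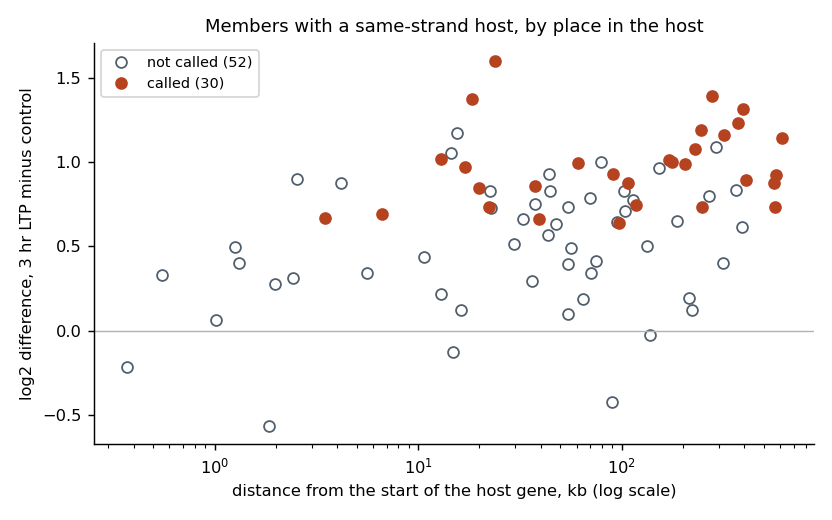
Log2 difference between 3 hr LTP and 3 hr control of the 82 tested members with a same-strand host (vertical) against the distance of the member from the host's start in kb (horizontal, log scale), filled where called. Of the 31 beyond 100 kb 17 were called, and of the 13 within 10 kb 2 were.

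Other genes inside introns were compared by type and by strand, leaving out any that overlaps an exon of another gene on either strand. The 72 members of this kind on the host's strand had a median log2 difference of 0.73 at 3 hr, and 37.5% were called higher. Processed pseudogenes, which are intronless copies of mRNAs, had a median of 0.60 on the host's strand (201 genes, 18.4% called higher) and 0.19 on the opposite strand (87 genes, 0 called higher and 1 lower). Same-strand snRNA, miRNA and misc_RNA genes had medians of 0.55, 0.62 and 0.59, and snoRNA genes, which are processed from host introns, 0.31. Same-strand lincRNA and scaRNA genes were lower, at 0.17 (16 genes) and 0.14 (11 genes), and opposite-strand lincRNA genes were close to the former, at 0.15 (11 genes). Antisense genes had a median of 0.05, and protein-coding genes inside introns 0.01 on the host's strand and -0.04 on the other. Over all these other types together the median was 0.45 for 610 same-strand genes and 0.02 for 342 opposite-strand genes. At 1 hr the like medians were 0.23 for members, 0.18 for other same-strand genes and 0.05 for opposite-strand genes, but within single types the strands lay closer: processed pseudogenes had medians of 0.28 on the host's strand and 0.26 on the other (139 genes), and snRNA genes 0.23 and 0.22. Differences between these classes were not tested.

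**Figure D5:**
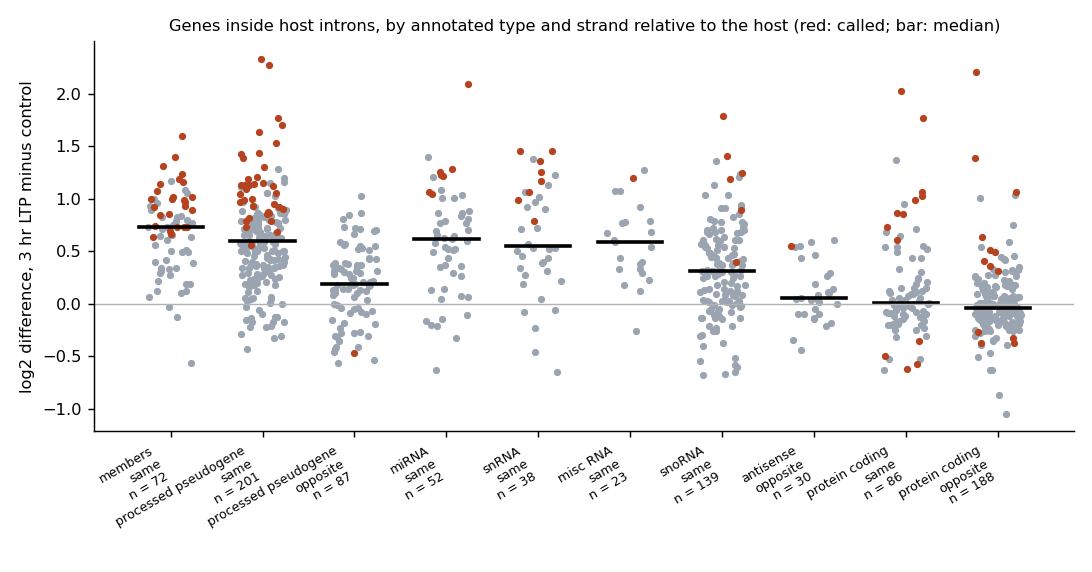
Log2 difference between 3 hr LTP and 3 hr control of genes that lie in an intron of a host without exonic overlap (points, red where called), by annotated type and strand relative to the host, with the median of each class (bar). Members had a median of 0.73, same-strand processed pseudogenes 0.60 and opposite-strand processed pseudogenes 0.19.

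The distance pattern was seen in other nested non-coding and pseudogene models of the same strand as well. Their medians at 3 hr were 0.29 within 10 kb of the host's start (119 genes), 0.53 between 10 and 100 kb (237 genes) and 0.60 beyond (168 genes). On the opposite strand they were 0.06 (30 genes), 0.19 (86 genes) and 0.13 (38 genes).

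The controls were compared to see what the members do with time in the slice alone. Of 100 members tested, 9 were called higher and 13 lower in the 3 hr controls than in the 1 hr controls, beside 16.1% and 16.8% of all 18584 genes. The difference from all genes was not tested. Their median log2 difference was -0.15 (all genes, -0.02). Offsets for GC content and length gave 11 higher and 6 lower and a median of 0.0025, so the direction of the balance depends on that correction. With 1 hr control library 2 in the fit 15 were called, 8 higher and 7 lower. Without 1 hr control 1 there were 12, and without 3 hr control 3 there were 14.

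Gm10654 (ENSMUSG00000074252, chr8:70931405-70933037), a TEC gene with no host, was called higher: it was at 1.45 and 1.45 CPM in the fitted 1 hr controls and 3.31, 3.44 and 4.36 CPM in the 3 hr controls (log2 1.33 ± 0.21, adjusted p = 0.000588). The left-out 1 hr control was at 3.23 CPM, near the 3 hr controls, and with it the difference was 0.84 ± 0.26. Gm14376, 1.02 kb into Cttn, which encodes the actin-binding protein cortactin, was at 0.129 and 0.118 CPM and then at 0.324, 0.523 and 0.545 CPM (1.86 ± 0.49). Gm28277 in the importin gene Ipo9 had 5 counts in the fitted 1 hr controls against 48 in the 3 hr controls, a ratio of 5.41 (exact 95% counting interval 2.17 to 17.4), but lost its call with the left-out library, itself at 0.310 CPM, in the fit. Gm27002 in Osbpl10 had 5 against 43 counts, a ratio of 4.85 (1.93 to 15.7), and Gm17207 2 against 23, a ratio of 6.48 (1.60 to 56.7). Gm17207 lost its call in 5 of 19 alternatives (adjusted p up to 0.204).

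Among the falls, Gm24362, 3.28 kb into the elongin A gene Eloa, had 16 counts in the 2 fitted 1 hr controls and 3 in the 3 hr controls, a ratio of 0.106 (exact 95% counting interval 0.0197 to 0.369). 1700129L04Rik in Nell2 (-1.46 ± 0.52), Gm29055 in the exoribonuclease gene Dis3l2 (-1.06 ± 0.35), Gm12737 in Tut4 (-1.003 ± 0.36) and Gm15521 in Ntm (-0.72 ± 0.27) followed. Gm24362 kept its call in 17 of 17 alternatives, but the others did not. 1700129L04Rik lost it without 1 hr control 1 (-0.67 ± 0.65, adjusted p = 0.503) and also without 3 hr control 2. Gm12737 lost it in 5 of 20, among them the fit with the left-out library (-0.52 ± 0.46), Gm29055 in 4 of 20 (adjusted p up to 0.163) and Gm15521 in 7 of 20 (adjusted p up to 0.216). Of the 31 members called at 3 hr of LTP 5 were called in this comparison too (Gm28320 is named because the count is small): Gm15521, Gm9930, Gm10855 and Gm28320 were lower in the 3 hr controls, and Gm28119 was higher. Since both comparisons use the 3 hr controls, their values are not independent. Gm9930, for example, was at 1.96 and 2.25 CPM in the fitted 1 hr controls, 1.41, 1.44 and 1.40 CPM in the 3 hr controls and 3.63, 2.97 and 4.48 CPM in 3 hr LTP, the last above all others.

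The member differed from its host between the controls in 8 of 87 pairs, 6 higher and 2 lower, beside 8.59% and 6.38% of 1537 nested pairs. The higher ones with the smallest p were Gm28277 (1.90 ± 0.34), Gm14376 (1.69 ± 0.32) and Gm28119 (1.14 ± 0.25), and the lower ones were Gm24362 (-1.64 ± 0.46) and Phxr4, a TEC gene in Maml2 (-0.81 ± 0.24). Gm29055 came next (-0.95 ± 0.34) and did not pass. With 1 hr control 2 in the fit 10 were called, 5 higher and 5 lower, and with at least 10 counts in every fitted library 1 was higher and 4 lower, so the balance turned with the setting. Without 1 hr control 1 there was 1 call, without 3 hr control 2 there were 4 and without 3 hr control 3 there were 5.

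Whether the LTP effect differed between 3 hr and 1 hr was tested as an interaction. By edgeR 0 of 100 members were called, beside 0.0592% of all genes, 0 were called with 1 hr control 2 in the fit, and 1 was called by DESeq2. At an unadjusted p under 0.05 there were 21, beside 6.59% of all genes. Of the 100, 74 had the larger value at 3 hr, with a median difference of 0.34. The smallest p in that direction belonged to Gm15606 (0.81 ± 0.21), Gm9930 (1.05 ± 0.27) and Gm10855 (0.90 ± 0.24), and in the other direction to Gm10654 (-0.81 ± 0.28), Gm28277 (-1.69 ± 0.71) and Gm17024 (-0.41 ± 0.18). Their adjusted p ran from 0.387 to 0.720. The rise of 31 members at 3 hr and of 1 at 1 hr is therefore not shown by the edgeR test to be a difference between the times for any single member. The member called by DESeq2 was Gm15606 (adjusted p = 0.099), and with no filter beyond 1 count edgeR called Gm15606 (adjusted p = 0.0709) and Gm10855 (adjusted p = 0.0398), and also Gm15338, named because the count is small, all larger at 3 hr.

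For comparison, of the 26 immediate early genes of the list 23 were called higher at 1 hr and 21 at 3 hr, with median log2 differences of 1.16 and 0.95, and Arc and Fos were at 1.99 ± 0.08 and 1.97 ± 0.08 at 1 hr. The study chose its animals for sequencing by the rise of Arc and Homer1, so this list is not independent evidence. Of 23 genes for nuclear RNA decay, debranching and termination in the tables, 0 were called at 1 hr and 3 at 3 hr, beside 6.60% of all genes: the exosome subunit genes Exosc8 and Exosc4 were lower (-0.44 ± 0.08 and -0.28 ± 0.07) and Zfc3h1, a factor that directs nuclear RNA to the exosome, was higher (0.38 ± 0.06). Their medians were -0.04 and -0.06. In the controls 10 of the 23 were called, 4 higher and 6 lower, beside 32.8% of all genes. Their part in the members' values was not tested.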

How the data were processed

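The authors deposited raw counts of reads per gene, 1 table per time point, from ribosomal RNA-depleted stranded total RNA. According to the study's methods STAR placed the reads on GRCm38 (mm10) and Bioconductor packages counted them, and the submitters' processing notes name DESeq2. The strand setting, the treatment of multi-mapping reads and the annotation release are not given in the sources used here, so for the 13 members with exons of another gene on the opposite strand the source of reads is uncertain.

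Here both tables were joined on Ensembl gene IDs, and 40217 of 41091 IDs matched GENCODE M21 without their version. A host is a gene of another type whose span holds the member's, with the same strand preferred. Among several on a strand, protein-coding genes came first, then the shortest span. Host values were available for the 90 members with such a gene in the tables, which for Gm28119 and Gm21846 was the next choice. The members and lists were chosen with earlier results of these data known. edgeR 4.0.16 (TMM, quasi-likelihood test, Benjamini-Hochberg over all genes) was fitted per time point for LTP, and over 11 libraries for the controls and the interaction. A call needed a fold over 1.2 and an adjusted p below 0.1. Member minus host used limma 3.58.1 on log2 ratios with a prior count of 2, adjusted over all nested pairs. DESeq2 1.42.0 and the other alternatives are in the closing section. CPM intervals and floors cover counting error only.

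Members named in the text are the most abundant (6 by CPM, 4 per kb), the largest calls or smallest p of each comparison, those whose host was called with LTP, and those nearest the count rule. On simulated counts, 88% of 2-fold changes were recovered at 3 hr over 17508 genes (86% at 1 hr), and 68% of 1.5-fold changes (72% at 1 hr). Of the simulated calls 10.9% were false at 3 hr and 14.1% at 1 hr. In this and the member minus host simulation, changes were placed only in genes above a minimum mean count. Recovery among scarcer members was thus not measured. For member minus host, 78% were recovered at 3 hr, 38% at 1 hr and 52% in the controls, and 14.4%, 5.63% and 22.7% of the simulated calls were false. Replicate numbers are animals, so within a time point they pair LTP with control. Whether the animals of both times are the same is not stated in the labels, and the control comparison and the interaction treated them as different. Deviations of same-numbered libraries correlated at -0.02, -0.13 and 0.07 (1 hr) and 0.03, -0.04 and 0.19 (3 hr).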

Additional observations from a re-analysis of the deposited data

Results flagged for a closer look

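Gm15903, in intron 1 of Nipsnap2, which encodes a mitochondrial protein, was noted because its LTP effect had opposite signs at the 2 times in every animal. The log2 ratio of LTP to control, with 0.1 CPM added to both, was -0.99, -0.05 and -0.80 in the 1 hr animals and 0.17, 0.19 and 0.32 in the 3 hr animals, the second 1 hr animal being the one whose control was left out of the fits. The 3 hr effect minus the 1 hr effect was 1.45 ± 0.62 (SE), with an edgeR adjusted p of 0.720, so the difference did not pass. All values are low, from 0.188 to 0.723 CPM.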

How the results depend on the processing

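Calls of members at 1 hr stayed at 1 in every alternative except without 1 hr LTP replicate 3 (range over the fits that each leave out a library, 1 to 2). At 3 hr the 31 calls became 19 at an adjusted p under 0.05 and ranged from 9 to 46 when a library was left out. The other alternatives gave 26 (DESeq2, which gave no adjusted p for 32 of 91 members there, 39 of 90 at 1 hr and 58 of 100 in the interaction) to 38 (GC content and length offsets), and all calls in all of them were higher in LTP. In the control comparison the 22 calls ranged from 12 to 24 when a library was left out, and GC content and length offsets turned 9 higher and 13 lower into 11 higher and 6 lower. The interaction gave 0 calls except 1 by DESeq2 and 3 with no filter beyond 1 count. Member minus host at 3 hr (12 calls) became 23 with at least 10 counts in every fitted library (870 pairs tested instead of 1229) and 0 to 12 when a library was left out. In the controls (8 calls) it became 5 with that filter and 1 to 9 when a library was left out. The cause of these changes was not tested, save that a left-out library also lowers the number of samples.

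With the animal as a replicate block, 1 member was called at 1 hr, 34 at 3 hr and 0 in the interaction, and member minus host gave 0 calls at 1 hr and 0 at 3 hr. The block moved no other count of calls by over 1.5 times. Of the values of named members under the alternatives, 977 stayed on the same side of the threshold, 78 lost the call, 9 gained it and 0 called values reversed. Most members are scarce: 64 lie under 1 CPM, where 3 counts are 0.0584 to 0.0791 CPM. How depth bears on their calls was not tested.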
